A study of Mus musculus with 13 samples.

Results

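Xenobiotic metabolism is carried by a small number of large enzyme families, and the 89 genes described here are the members of those families that the arrays measured. They are the cytochrome P450 genes Cyp1 (3 genes), Cyp2 (44 genes) and Cyp3 (6 genes), the glutathione S-transferases (18 genes of the Gsta, Gstk, Gstm, Gsto, Gstp and Gstt groups), the UDP-glucuronosyltransferases of the Ugt2 group (8 genes) and the cytosolic sulfotransferases Sult1 and Sult2 (10 genes). A gene was a member if a probe set (the set of oligonucleotide probes summarised to a single value) carried its symbol and no other, and each gene was read from its probe set with the highest mean over the 13 arrays. They are 89 of the 19938 genes that have such a probe set, and comparisons were tested over all 23410 probe sets with a gene symbol. A further 15 probe sets of these families carry several symbols and were left out. No Ugt1 gene is a member, because the Ugt1a genes share a probe set, and Gsta1 was likewise not measured on its own.

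The samples came from the small intestine of Apc mutant mice crossed with transgenic mice that express FPs, an abbreviation the labels do not spell out. Apc mutation, which predisposes mice to intestinal adenomas, and the FP transgenes are thus common to all samples, and no sample comes from a wild-type mouse. The groups were normal epithelium adjacent to adenomas with high FP expression (FP-high, 4 arrays), the same kind of epithelium with low FP expression (FP-low, 6 arrays) and adenomas (3 arrays). Crypts, the epithelial pits that hold the dividing cells, were drawn into glass capillaries of 40 µm diameter. RNA of each isolated crypt was amplified and hybridised to Affymetrix Mouse Gene ST arrays. The labels give neither the age of the mice, nor the promoter that drives FP expression, nor which samples come from the same mouse, so the p-values below reflect variation among these samples, part of which may be technical. The p-values treat each array as independent, which arrays from a shared mouse would not be. The series title concerns ageing-associated expression that precedes intestinal tumours.

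Cytochrome P450 enzymes of these families oxidise drugs, dietary compounds and other foreign substances, usually with NADPH-cytochrome P450 reductase as electron donor. The conjugating enzymes then attach glutathione (Gst), glucuronic acid (Ugt) or sulfate (Sult), which makes the products more soluble and lets transporters export them. In the small intestine this system meets ingested compounds before the liver does, and it is best developed in the absorptive enterocytes. The receptors Ahr, Nr1i2 (PXR) and Nr1i3 (CAR) and the factor Nfe2l2 (NRF2) are known to induce many of these genes in response to foreign compounds.

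Promoters are shown for 3 members whose adenoma levels lay mostly or wholly below those of normal epithelium (Ugt2a3, Cyp3a11 and Gstm3) and for a relative of Cyp3a11 and of Gstm3 that did not show this (Cyp3a13 and Gstm5). They were chosen after the values were seen. Each is the 250 bases before the annotated start, 5′ to 3′ on the gene's strand, from RefSeq on GRCm38.p6, with motif matches in capitals. Ugt2a3 lies at chr5:87337196-87337445 on the minus strand, Cyp3a11 at chr5:145879855-145880104 (minus), Cyp3a13 at chr5:137921620-137921869 (minus), Gstm3 at chr3:107969175-107969424 (minus) and Gstm5 at chr3:107895604-107895853 (plus).
Ugt2a3: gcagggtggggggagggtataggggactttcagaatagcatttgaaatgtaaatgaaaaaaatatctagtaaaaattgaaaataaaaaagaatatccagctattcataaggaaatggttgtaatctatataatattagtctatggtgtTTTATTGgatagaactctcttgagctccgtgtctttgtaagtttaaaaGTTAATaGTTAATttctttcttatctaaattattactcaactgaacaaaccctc
Cyp3a11: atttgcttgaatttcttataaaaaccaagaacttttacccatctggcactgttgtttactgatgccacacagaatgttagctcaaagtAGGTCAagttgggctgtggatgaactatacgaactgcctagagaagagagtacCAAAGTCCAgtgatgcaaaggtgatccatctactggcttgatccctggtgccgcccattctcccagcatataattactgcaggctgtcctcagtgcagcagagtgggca
Cyp3a13: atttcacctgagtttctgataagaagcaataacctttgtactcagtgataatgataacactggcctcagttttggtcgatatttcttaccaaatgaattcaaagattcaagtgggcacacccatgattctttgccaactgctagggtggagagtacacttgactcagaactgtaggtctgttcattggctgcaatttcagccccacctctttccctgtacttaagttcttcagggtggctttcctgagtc
Gstm3: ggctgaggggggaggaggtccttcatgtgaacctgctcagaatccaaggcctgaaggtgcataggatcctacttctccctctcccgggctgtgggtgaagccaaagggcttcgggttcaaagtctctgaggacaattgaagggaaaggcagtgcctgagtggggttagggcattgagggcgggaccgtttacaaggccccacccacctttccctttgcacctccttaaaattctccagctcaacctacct
Gstm5: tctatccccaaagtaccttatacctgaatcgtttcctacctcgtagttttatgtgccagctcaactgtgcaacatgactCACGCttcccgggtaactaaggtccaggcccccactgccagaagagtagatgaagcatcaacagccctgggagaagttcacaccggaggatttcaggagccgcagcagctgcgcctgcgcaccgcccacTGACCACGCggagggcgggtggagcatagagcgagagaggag

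Motifs were sought on both strands of the window from 250 bases before to 50 after the start, which RefSeq gave for 79 of the 89 members. The Ugt2a3 window held GTTAAT, the core element of Hnf1 factors, at positions -54 and -47 from the start, and TTTATNG, a Cdx2 element, at -102. The Cyp3a11 window held AGGTCA, the nuclear receptor element, at -162 and TGNACTTTG, an Hnf4a element, at -109. In the Gstm5 window GCGTG, the core of the Ahr element, stood at -171 and -38, and TGACNNNGC, the antioxidant response core, at -42, overlapping the latter. The Cyp3a13 and Gstm3 windows held none of the 6 motifs. Among member windows 29.1% held AGGTCA, 12.7% TGNACTTTG, 10.1% GTTAAT, 20.3% GCGTG, 6.33% TGACNNNGC and 11.4% TTTATNG. Over 32544 promoters of the same length the shares were 16.2%, 1.43%, 7.13%, 32.6%, 12.4% and 10.8% in that order. Members were counted by gene, with a single window each. The 32544 were counted by distinct sequence, so a gene could count more than once there. A match is a description of the letters and no evidence of binding.

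All levels below are the deposited log2 values, on which 1 unit is a 2-fold difference; levels of different probe sets are not compared as amounts. One array was unlike the other 12, FP-high replicate 1. Its values over all probe sets had an SD of 1.21 (1.89 to 2.10 elsewhere) and a median correlation of 0.762 with the rest (0.943 to 0.968 elsewhere). Its scale was compressed, with low readings for bright probe sets and high readings for dim ones: 1 member was above 7 there, against 6 to 18 members on each other array. Results are therefore given with and without it. The Xist transcript, which is made from an inactive X chromosome, was high (8.64 to 9.71) on the 3 adenoma arrays, FP-high replicate 4 and FP-low replicate 6 and at most 3.61 on the other 8 arrays. The Y-linked gene Eif2s3y ran the other way, at 2.01 to 2.25 on the former and 4.43 to 6.87 on the latter. By these transcripts all adenomas came from females and 8 of the 10 normal samples from males. Sex and adenoma state therefore cannot be fully told apart in the adenoma comparisons. In these bulk samples fewer cells of a type and less RNA per cell cannot be told apart.

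**Figure D1:**
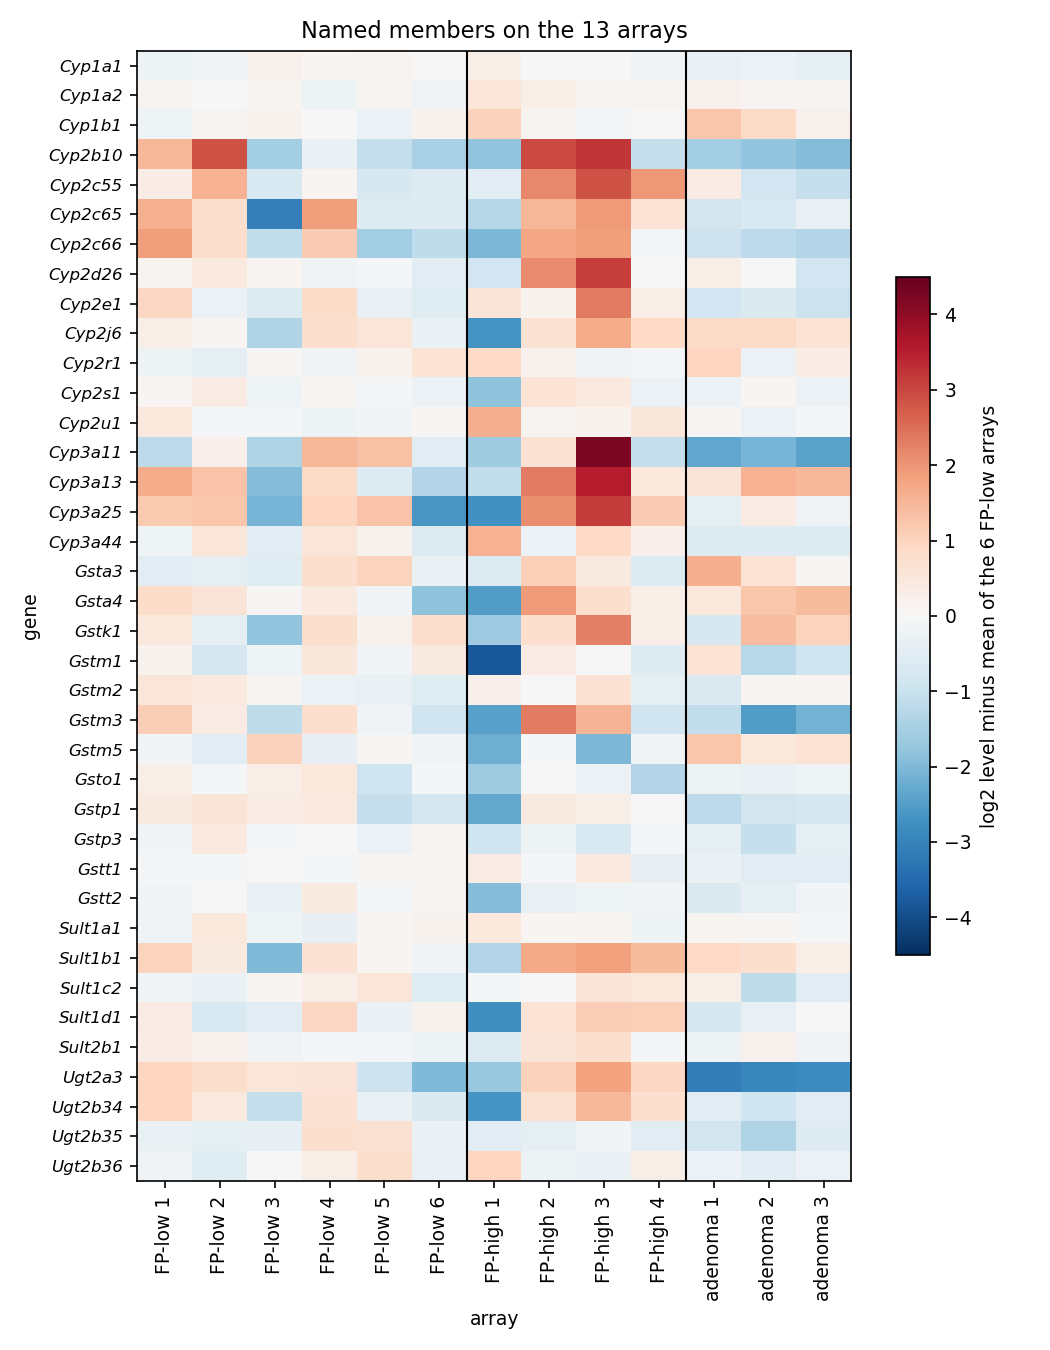
Log2 level of the 38 named members (rows, grouped by family) on each of the 13 arrays (columns), as the difference from the mean of the 6 FP-low arrays; red is higher and blue lower. Ugt2a3 and Cyp3a11 are blue on all 3 adenoma arrays, many rows are red on FP-high replicate 3, and FP-high replicate 1 differs from the other FP-high arrays.

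None of the 89 members passed the test between adenomas and normal epithelium (limma, Benjamini-Hochberg adjusted p under 0.05), where 0.91% of all probe sets did. The normal level was the mean of the FP-high and FP-low group means. At an unadjusted p under 0.05, 2 members (5.98% of all probe sets) were higher and 11 members (4.59% of all probe sets) lower in adenomas; without FP-high replicate 1 the counts were 2 (7.36%) and 18 (9.63%). The difference was below 0 for 73 of 89 members, with a median of -0.24, and below 0 for 61.9% of all probe sets, with a median of -0.09. Dim probe sets, with no group mean of at least 5, were below 0 in 79.3% (median -0.16), and the 59 dim members in 89.8%. The other probe sets were below 0 in 40.7% and the other 30 members in 66.7%. This split is partly set by the values compared. When FP-high replicate 1 was left out, Ugt2a3 passed as lower, the only 1 of the 89 to pass (1.12%, against 0.615% of all probe sets passing as lower), and the median difference over the members became -0.23 (all probe sets -0.07). With arrays weighted by their fit, 1 member passed as higher (2.96% of all probe sets) and 5 as lower (1.97%). Against FP-low epithelium alone none of the 89 passed either (0.551% of all probe sets), nor against FP-high alone (0.765%, or 0.218% with the replicate number as a block). Leaving out FP-high replicate 1, 1 member passed as lower than FP-low (Ugt2a3; 0.513% of all probe sets) and 2 as lower than FP-high (Ugt2a3 and Cyp2c55; 0.192%). Leaving out FP-low replicate 6 also made Ugt2a3 pass as lower than normal (0.0299% of all probe sets). Leaving out FP-high replicate 4 made Cyp2b9 pass as lower than FP-high (0.047%).

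In 6 members every adenoma array lay below all 10 normal arrays (6.74%, against 2.04% of all probe sets), namely Cyp1a1, Cyp2e1, Cyp3a11, Cyp3a44, Ugt2a3 and Ugt2b35. No member lay above all normal arrays, against 1.93% of all probe sets. With FP-high replicate 1 left out the same 6 lay below (3.28% of all probe sets) and 1, Cyp1b1, above (2.3%).

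**Figure D2:**
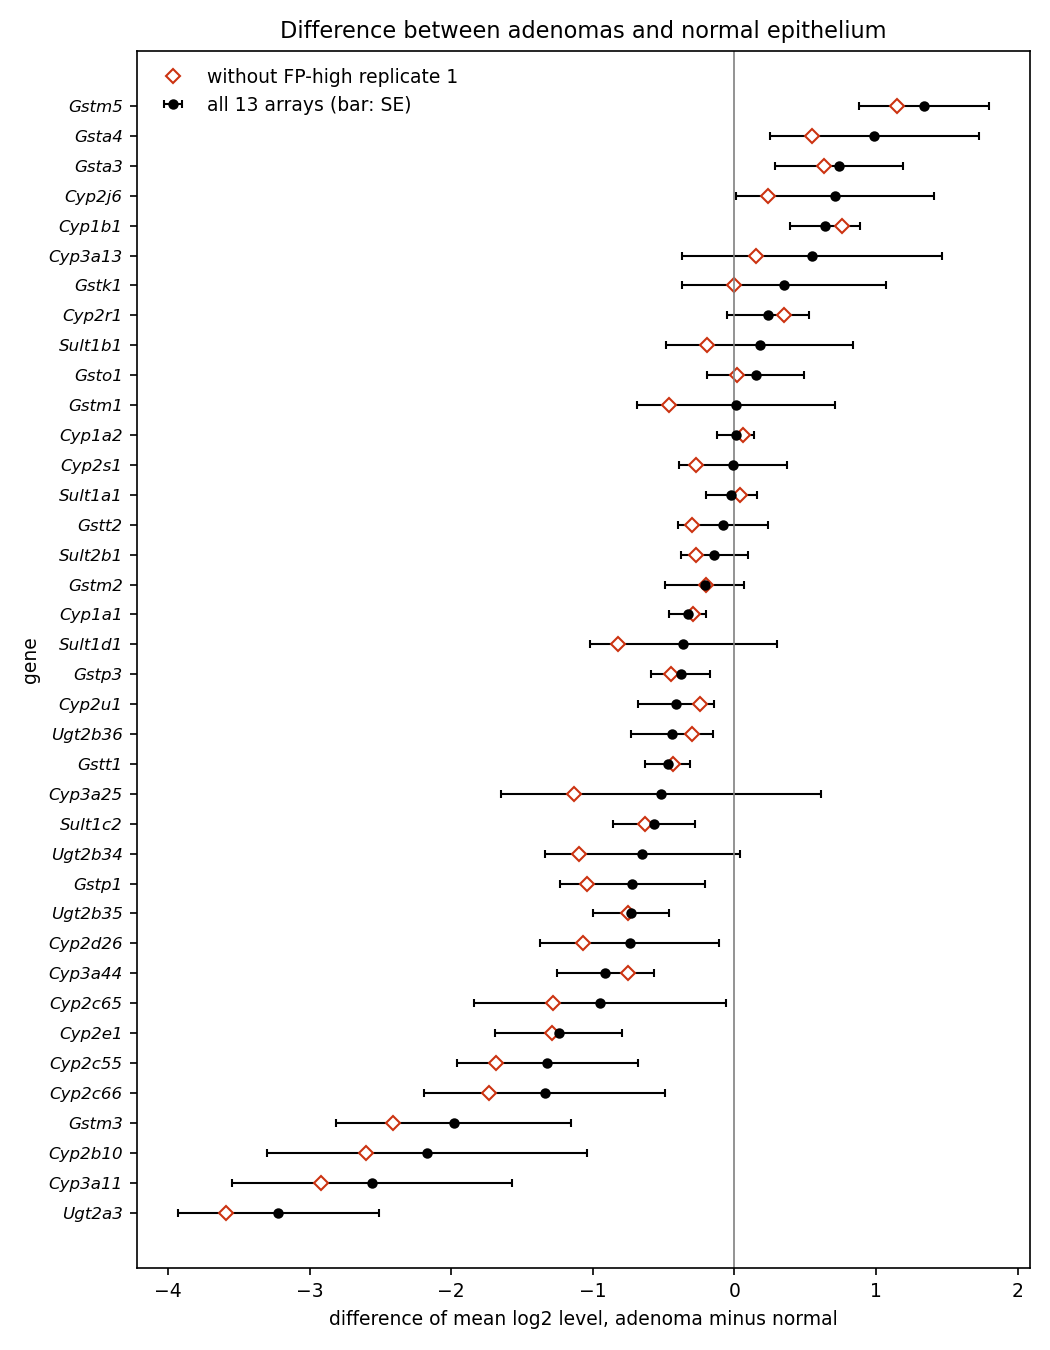
Difference of mean log2 level, adenoma minus normal (x axis), for the 38 named members (y axis); filled points and bars are the estimate and its SE over all 13 arrays, open diamonds the estimate without FP-high replicate 1. Ugt2a3 has the lowest value (-3.22, or -3.59 without that array) and Gstm5 the highest (1.34, or 1.15).

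Among the Ugt2 genes, whose enzymes attach glucuronic acid to drugs, steroids and bile acids, Ugt2a3 differed most between adenomas and normal epithelium. Its level was 4.03, 4.22 and 4.29 in the adenomas. In FP-high epithelium it was 5.42, 8.17, 8.95 and 8.08, and in FP-low epithelium it ran from 5.16 to 8.12 with a median of 7.71. Every adenoma array was thus below every normal array, and the lowest normal arrays were FP-low replicate 6 and FP-high replicate 1. The difference was -3.22 ± 0.71 (SE; 3 against 10 arrays; limma adjusted p = 0.0567). Leaving out FP-high replicate 1 gave -3.59 ± 0.55, with a limma adjusted p of 0.0065, and leaving out FP-low replicate 6 gave -3.42, with an adjusted p of 0.0246. Against each normal group alone it was -2.96 ± 0.75 (FP-low, adjusted p = 0.152) and -3.48 ± 0.81 (FP-high, adjusted p = 0.0772), and without FP-high replicate 1 -2.96 (adjusted p = 0.0238) and -4.22 (adjusted p = 0.00962). These comparisons share the adenoma arrays. Over 21 other settings the adjusted p against normal epithelium ran from 0.00107 to 0.759 and was under the threshold in 6. Both normal arrays with high Xist, at 8.08 and 5.16, were above the adenomas, but with Xist as a covariate the difference was -2.44 ± 0.96, with a limma adjusted p of 0.759.

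The other Ugt2 genes did not follow Ugt2a3 in size. Ugt2b34, another glucuronosyltransferase, was at 6.97, 6.57 and 7.0 in the adenomas. It was at 4.82, 8.13, 8.94 and 8.21 in FP-high and 6.40 to 8.43 (median 7.51) in FP-low epithelium, so the adenomas lay inside the normal range. Its difference was -0.65 ± 0.69, and -1.10 without FP-high replicate 1. Ugt2b35 was dim everywhere, at 2.79 to 3.56 in adenomas and 3.65 to 4.84 in normal epithelium, with a difference of -0.73 ± 0.27. Ugt2b36 was dimmer still and overlapped (adenomas 2.66 to 2.91, normal 2.64 to 4.15). All 8 Ugt2 members had a difference below 0, from -3.22 to -0.12 with a median of -0.62. So did 61.9% of all probe sets and 79.3% of the dim ones. Within an array, Ugt2b34 minus Ugt2a3 was 2.34 to 2.94 in adenomas and -1.29 to 1.65 in normal epithelium; this pair and those below were picked after their values were seen and were not tested.

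**Figure D3:**
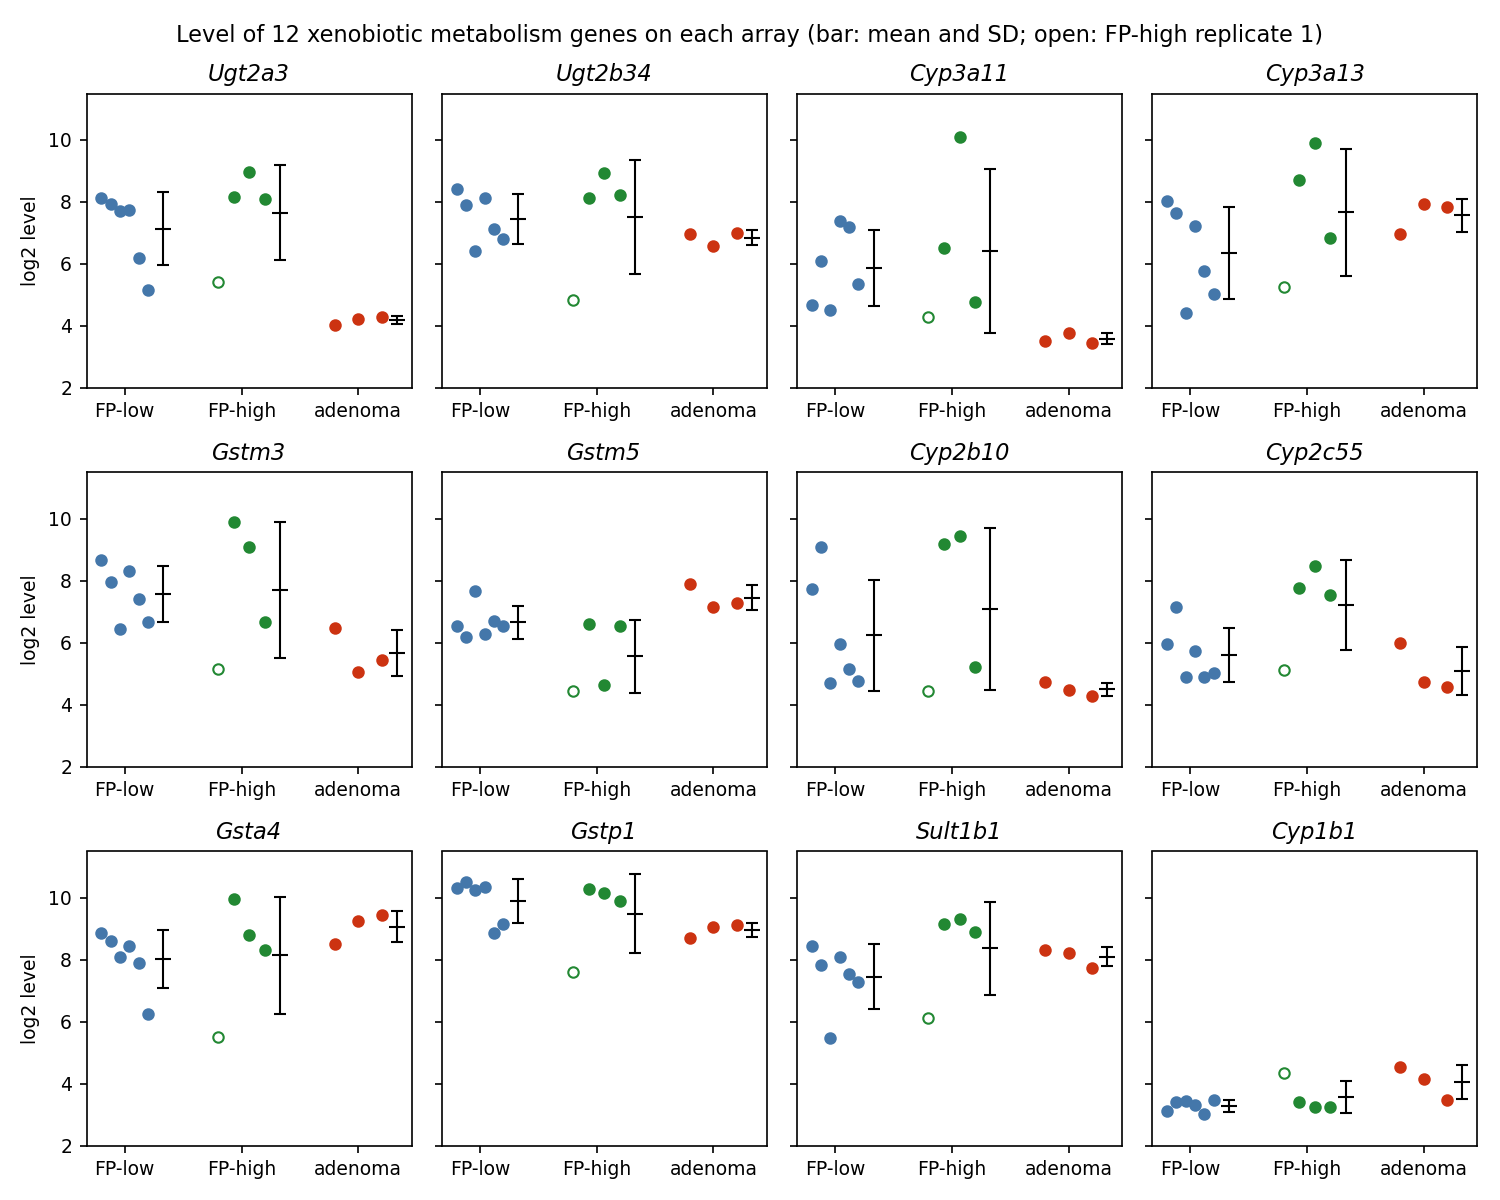
Log2 level (y axis) of 12 members on each array, by group (x axis); points are arrays, open points FP-high replicate 1, and bars the group mean and SD. The 3 adenoma points of Ugt2a3 sit between 4.03 and 4.29, below all 10 normal points, while those of Ugt2b34 and Cyp3a13 lie inside the normal range.

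The Cyp3 genes encode the most versatile drug-oxidising P450 enzymes of intestine and liver. Cyp3a11, a classical target of Nr1i2, was at 3.52, 3.78 and 3.45 in the adenomas. Normal epithelium varied widely, from 4.27, 6.50, 10.11 and 4.78 in FP-high to 4.52 to 7.37 (median 5.72) in FP-low samples. The adenomas lay below all normal arrays, yet the difference of -2.56 ± 0.99 did not pass (limma adjusted p = 0.376; -2.92 and 0.15 without FP-high replicate 1), and with Xist as a covariate it was -1.48 ± 1.36 (adjusted p = 0.996). The highest normal array was FP-high replicate 3, at 10.11, and the next highest was at 7.37.

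Cyp3a13, the Cyp3a gene best known from the gut, showed no such separation. It was at 6.95, 7.93 and 7.82 in adenomas, 5.25, 8.71, 9.90 and 6.83 in FP-high and 4.41 to 8.04 (median 6.51) in FP-low epithelium. Its difference was 0.55 ± 0.92, and 0.15 without FP-high replicate 1. Cyp3a25 lay at 5.85, 6.60 and 6.07 in adenomas, inside a normal range of 3.50 to 9.40. Cyp3a44 was dim and lower in adenomas (2.87 to 2.91) than in any normal array (2.93 to 5.07), a gap far smaller than its spread. Within an array, Cyp3a13 minus Cyp3a11 was 3.43 to 4.38 in adenomas and -1.41 to 3.35 in normal epithelium. Cyp3a25 minus Cyp3a11 overlapped (2.33 to 2.83 against -1.73 to 2.73).

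The Cyp2 family is the largest, and 39 of its 44 members (88.6%) had an adenoma difference below 0, with a median of -0.25. Most of them were dim, and 79.3% of dim probe sets and 61.9% of all probe sets were below 0. Cyp2b10, a target of Nr1i3, split the normal arrays: it was at 9.19 and 9.46 in FP-high replicates 2 and 3 and at 7.73 and 9.11 in FP-low replicates 1 and 2, but between 4.45 and 5.95 on the other 6 normal arrays. In the adenomas it was at 4.72, 4.47 and 4.29, near the lower cluster. Its difference was -2.17 ± 1.13. A single mean for normal epithelium describes this gene poorly.

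The Cyp2c genes of the gut varied in the same way. Cyp2c55, which oxidises arachidonic acid among other substrates, was at 5.98, 4.73 and 4.57 in adenomas and at 5.11, 7.76, 8.48 and 7.55 in FP-high epithelium. In FP-low epithelium it ran from 4.88 to 7.15, with a median of 5.36. The adenoma difference was -1.32 ± 0.64 from normal and -2.14 ± 0.73 from FP-high. The difference from FP-high with replicate 1 left out was -2.84 ± 0.57, which passed (limma adjusted p = 0.038). Cyp2c65 was at 5.95 to 6.44 in adenomas and 3.70 to 8.67 in normal epithelium, and Cyp2c66 at 4.34 to 4.73 and 3.66 to 7.56.

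Of the remaining named Cyp2 genes Cyp2e1 alone did not overlap between adenomas and normal epithelium. It oxidises ethanol and other small molecules, and was dim at 3.18, 3.36 and 3.07 in adenomas and higher in every normal array (3.41 to 6.38), with a difference of -1.24 ± 0.45 (limma adjusted p = 0.33). Cyp2d26 was at 4.73 to 5.85 in adenomas and 4.73 to 8.69 in normal epithelium, the highest being FP-high replicate 3. Cyp2j6, an epoxygenase of the gut, was alike on the adenoma arrays (7.18 to 7.44) and ran from 5.20 to 8.25 in normal epithelium, or down to 3.87 with FP-high replicate 1. Cyp2s1, an extrahepatic P450, was at 4.52 to 4.88 in adenomas and 4.51 to 5.39 in normal epithelium without that array. Cyp2u1 (3.90 to 4.21 in adenomas, 3.95 to 5.81 in normal) and Cyp2r1, a vitamin D 25-hydroxylase (2.48 to 3.70 and 2.30 to 3.65), were dim and overlapped. Of the Cyp2 members not named so far, Cyp2c68, Cyp2d22 and Cyp2d40 had a group mean of at least 5 and the rest did not.

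The Cyp1 genes, the classical targets of Ahr, were near the bottom of the scale. Cyp1a1 was at 2.99, 3.05 and 2.91 in adenomas and 3.09 to 3.58 in normal epithelium; the groups did not overlap, but the difference was only -0.33 ± 0.13. Cyp1a2 was at 2.84 to 2.90 and 2.51 to 3.28. Cyp1b1, which is also expressed in stromal cells, was at 4.55, 4.16 and 3.47 in adenomas, at 3.01 to 3.46 in FP-low epithelium and at 4.34, 3.40, 3.25 and 3.26 in FP-high epithelium. Its difference was 0.64 ± 0.25 (limma adjusted p = 0.39), and 0.76 (adjusted p = 0.0655) without FP-high replicate 1, when all adenomas lay above all normal arrays. Of 6 fibroblast markers 3 had an adenoma difference above 0, with a median of 0.01, and Dcn alone passed (limma). Dcn was at 7.62, 6.14 and 4.41 on the same adenoma arrays and 3.35 to 4.07 in normal epithelium. The part of fibroblasts in the Cyp1b1 values was not tested.

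The glutathione S-transferases had differences in both directions: 7 of 18 had an adenoma difference above 0 and 11 below (61.1%, against 61.9% of all probe sets), with a median of -0.13. The mu-class genes Gstm3 and Gstm5 differed in opposite directions. Gstm3 was at 6.48, 5.06 and 5.46 in adenomas, 5.14, 9.91, 9.10 and 6.68 in FP-high and 6.43 to 8.69 (median 7.69) in FP-low epithelium. Its difference was -1.98 ± 0.83 (limma adjusted p = 0.415), or -2.41 (adjusted p = 0.094) without FP-high replicate 1, and -1.01 ± 1.12 (adjusted p = 0.996) with Xist as a covariate. Gstm5 was at 7.91, 7.15 and 7.29 in adenomas, 4.45, 6.61, 4.65 and 6.55 in FP-high and 6.19 to 7.68 (median 6.54) in FP-low epithelium. Its difference was 1.34 ± 0.46 (limma adjusted p = 0.295), and FP-low replicate 3, at 7.68, was the only normal array within the adenoma range. Within an array, Gstm5 minus Gstm3 was 1.43, 2.09 and 1.83 in adenomas and -4.45 to 1.25 in normal epithelium.

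The other transferases overlapped between adenomas and normal epithelium. Gsta4, which conjugates the lipid peroxidation product 4-hydroxynonenal, was at 8.52, 9.27 and 9.44 in adenomas and 6.24 to 9.96 in normal epithelium without FP-high replicate 1, where it was 5.51. Gsta3 was at 7.11, 6.10 and 5.53 against 4.86 to 6.54. Gstp1, the pi-class enzyme, was bright in all groups, at 8.72, 9.07 and 9.14 in adenomas and 8.86 to 10.50 in normal epithelium without FP-high replicate 1 (7.61); its difference was -0.72 ± 0.51, or -1.04 without that array. Gstp3 was at 4.19 to 4.80 and 4.31 to 5.64. Gstm1 (5.45 to 7.33 in adenomas), Gstm2 (5.13 to 5.89), Gstk1 (5.53 to 7.62), Gsto1 (6.80 to 6.95) and Gstt2 (5.40 to 5.93) had differences between -0.21 and 0.35. Gstt1 was at 4.75, 4.59 and 4.55, with 4.69 the lowest normal value, and its difference was -0.47 ± 0.16.

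Among the sulfotransferases, Sult1b1 and Sult1d1, both known from intestinal epithelium, were bright in every group. Sult1d1 was at 8.79, 9.20 and 9.55 in adenomas and 8.85 to 10.65 in normal epithelium without FP-high replicate 1, where it was 6.78. Sult1b1 was at 8.33, 8.21 and 7.75 in adenomas, with a difference of 0.18 ± 0.66. Sult1a1 (4.29 to 4.47 in adenomas, 3.97 to 4.84 in normal epithelium), Sult1c2 (3.30 to 4.72 and 3.89 to 5.01) and the sterol sulfotransferase Sult2b1 (4.41 to 4.80 and 3.99 to 5.33) were dim. Of the 10 Sult members 9 had a difference below 0 (90%, against 61.9% of all probe sets and 79.3% of the dim ones), with a median of -0.28.

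Between FP-high and FP-low epithelium none of the 89 members passed the limma test, as 0% of all probe sets did. At an unadjusted p under 0.05, 12 members were higher (4.78% of all probe sets) and 3 lower (7.95%) in FP-high samples. With FP-high replicate 1 left out, 15 were higher (3.69% of all probe sets) and 0 lower (4.84%). The median difference over the members was 0.22, or 0.19 without that array, and over all probe sets 0.05 and 0.02. With all arrays the higher members were mostly dim ones, which read higher on FP-high replicate 1.

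Cyp2c55 had the largest FP difference of the 89 members. It was 1.63 ± 0.62 (limma adjusted p = 0.376), and 2.33 ± 0.49 (adjusted p = 0.198) without FP-high replicate 1, when the lowest FP-high array (7.55) lay above the highest FP-low array (7.15). Sult1b1 also separated then, at 9.15, 9.31 and 8.89 against 5.48 to 8.45, with a difference of 1.66 ± 0.50. These were 2 of 89 members (2.25%, against 1.39% of all probe sets) above all FP-low arrays, and with all 4 arrays none were, against 0.743%. Without that array 13 members, these 2 included, had a difference above 1, against 3 members with all arrays, and in 11 of the 13 the groups overlapped. Leaving it out moved Cyp3a25 from 0.92 to 2.13, Cyp3a13 from 1.32 to 2.12, Cyp2d26 from 1.09 to 1.74 and Cyp2b10 from 0.84 to 1.72. It moved Cyp2c65 from 0.68 to 1.35, Cyp3a11 from 0.55 to 1.26, Cyp2c68 from 0.87 to 1.25 and Cyp2c66 from 0.38 to 1.18. Gstk1 went from 0.43 to 1.11, Cyp2j6 from 0.13 to 1.07 and Ugt2a3 from 0.52 to 1.26, although Ugt2a3 was at -0.21 with the replicate number as a block. Over 22 other settings the lowest differences were -0.69 for Cyp3a11, -0.39 for Cyp2j6, -0.3 for Cyp2c66 and -0.19 for Gstk1. Those of Cyp2c55, Sult1b1, Cyp3a25, Cyp3a13, Cyp2d26, Cyp2b10 and Cyp2c65 stayed above 0 in every setting. The difference of Gstm5 was below 0 (-1.10 ± 0.45, and -0.72 without that array), as was that of Gsto1 (-0.80 and -0.53). The direction turned with that array for Cyp2s1, Gstp1 and Cyp1a1, among others.

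**Figure D4:**
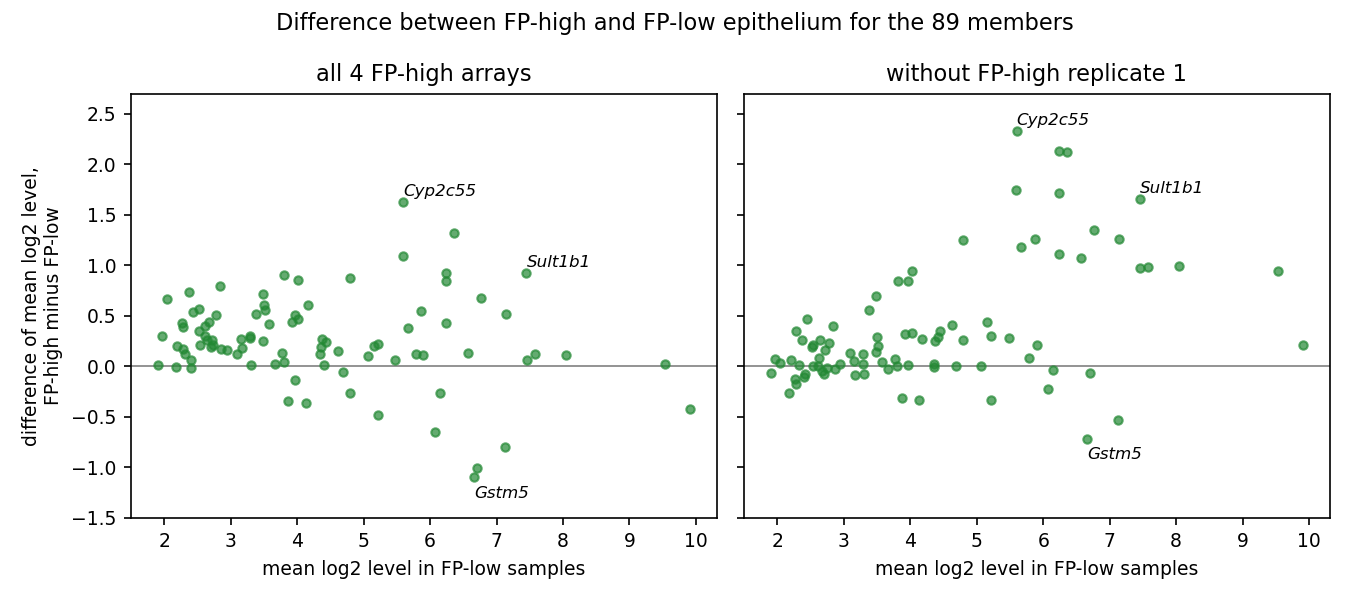
Difference of mean log2 level, FP-high minus FP-low (y axis), against the mean FP-low level (x axis) for the 89 members, with all 4 FP-high arrays (left) and without FP-high replicate 1 (right). Without it Cyp2c55 moves from 1.63 to 2.33 and Sult1b1 from 0.92 to 1.66, and the dim members lie closer to 0.

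The normal arrays varied strongly among themselves, across both FP groups. Over the 9 normal arrays without FP-high replicate 1, 20 of 89 members (22.5%) spanned at least 2 log2 units, against 9.18% of all probe sets. Cyp3a25 spanned 5.77, Cyp3a11 5.60, Cyp3a13 5.49, Cyp2c65 4.97 and Cyp2b10 4.75. The highest of the 9 arrays was FP-high replicate 3 in 14 of the 20, and the lowest was FP-low replicate 3 in 12 and FP-low replicate 6 in 5. Gstm5 ran opposite, highest in FP-low replicate 3 and lowest in FP-high replicate 3.

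Enterocyte markers varied over the same arrays. The mean log2 level of the 19 measured enterocyte markers was 9.96 in FP-high replicate 3, the highest of the 13 arrays. It was 6.95 and 6.62 in FP-low replicates 3 and 6, the lowest of the other arrays save FP-high replicate 1 (6.23). Their part in the spread of the members was not tested. In adenomas the enterocyte mean was 7.52 to 7.82, between the normal extremes of 6.23 to 9.96, and 4 of 19 markers had an adenoma difference above 0, with none passing (limma; 2 lower at an unadjusted p under 0.05). Between FP-high and FP-low epithelium 18 of the 19 were above 0, with a median of 0.63, and none passed (limma). At an unadjusted p under 0.05, 2 were higher (10.5%, against 4.78% of all probe sets). Without FP-high replicate 1 the median was 1.35 and 8 were higher (42.1%, against 3.69%), and none passed. The 5 measured markers of dividing cells also moved with FP expression: their mean was 6.03 to 7.63 in FP-high and 7.84 to 8.36 in FP-low epithelium, without overlap, and their median difference was -1.23 (-0.98 without FP-high replicate 1). All 5 were lower at an unadjusted p under 0.05 (4 without that array), and none passed (limma). Their part in the FP differences of the members was not tested.

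**Figure D5:**
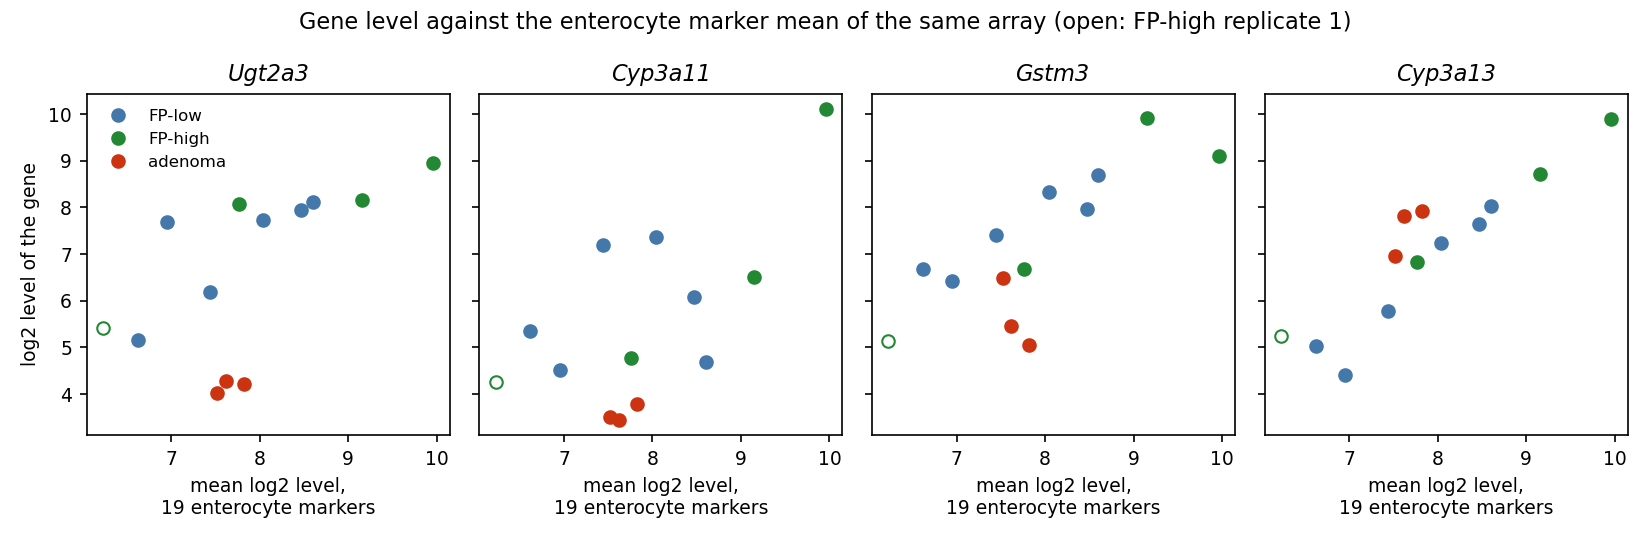
Log2 level of Ugt2a3, Cyp3a11, Gstm3 and Cyp3a13 (y axis) against the mean log2 level of 19 enterocyte markers on the same array (x axis); each point is an array, coloured by group, and open points are FP-high replicate 1. The adenoma arrays have enterocyte means of 7.52 to 7.82 and the normal arrays of 6.23 to 9.96.

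Some markers of intestinal region and of other cells also differed between adenomas and normal epithelium. The 7 measured markers of the distal small intestine had a mean of 7.12 to 7.70 in adenomas and 4.54 to 6.81 in normal epithelium. An adenoma difference above 0 was found for 6 of them, with a median over the 7 of 0.84, or 0.39 without FP-high replicate 1. Against FP-high alone the median without that array was -0.05. Among the 7, only Fabp6, the ileal bile acid binding protein, and Slc10a2, the ileal bile acid transporter, passed. Fabp6 was at 12.63 to 13.23 in adenomas and 4.32 to 9.43 in normal epithelium. The 8 proximal markers had means of 6.35 to 6.67 and 6.12 to 7.96. Paneth cell markers, of which 5 were measured, had a mean of 8.46 to 10.34 in adenomas and 10.25 to 11.72 in normal epithelium without FP-high replicate 1 (7.20), with a median difference of -1.62 (-2.10 without that array). None of them passed with all arrays (limma; 3 lower at an unadjusted p under 0.05), and 2, Lyz1 and Defa24, passed as lower without that array. The stem cell marker Lgr5 passed as higher, at 8.42, 7.02 and 7.10 in adenomas and 4.91 to 6.92 in normal epithelium. Olfm4, another stem cell marker, had a difference of -2.69 ± 0.84 and passed as lower without FP-high replicate 1 (-3.12 ± 0.67, limma adjusted p = 0.0342). Mast cell markers had a mean of 3.96 to 4.7 in adenomas and 3.12 to 3.84 in normal epithelium. Only 3 of these 5 markers had an adenoma difference above 0, with a median of 0.41, and Mcpt2 alone passed. Fibroblast markers had means of 4.42 to 5.19 and 4.28 to 4.72. Enteroendocrine markers had a mean of 4.78 to 4.95 in adenomas and 5.10 to 5.95 in normal epithelium. The 4 measured hepatocyte markers, from cells that express many of the members, had a mean of 3.49 to 4.56, although Alb was at 7.89 in adenoma 1. The part of region and of these cells in the values of the members was not tested.

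Other genes of the pathway were read from a list of 65, of which 60 were measured. None passed in any of the 4 comparisons (limma). At an unadjusted p under 0.05, 1 was higher (1.67%, against 5.98% of all probe sets) and 5 lower (8.33%, against 4.59%) in adenomas than in normal epithelium. The counts without FP-high replicate 1 were 5 higher (8.33%, against 7.36%) and 18 lower (30.0%, against 9.63%). The adenoma difference was above 0 for 22 and below for 38, with a median of -0.26, where 61.9% of all probe sets were below 0. The 14 receptors and regulators had a median of -0.30, the 20 other oxidising and reducing enzymes -0.46, the 9 genes of cosubstrate supply 0.16 and the 8 transporters 0.08. With that array left out, 3 genes passed as lower than normal epithelium (5%, against 0.615% of all probe sets) and no others passed in any comparison. Maoa, a monoamine oxidase, was at 6.82, 7.31 and 8.35 in adenomas and at least 9.14 in normal epithelium (limma adjusted p = 0.00224). Vdr, the vitamin D receptor and a known inducer of intestinal Cyp3a genes, was at 6.09, 5.65 and 5.93 against at least 6.34 (adjusted p = 0.0331). Mgst1, a microsomal glutathione transferase, was at 8.16, 8.36 and 8.22 against at least 8.70 (adjusted p = 0.0254).

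The receptors Nr1i2, Nr1i3 and Ahr and the factors Hnf4a and Nfe2l2 overlapped between the groups. Nr1i2 was at 4.7, 5.37 and 5.09 in adenomas and 4.12 to 5.85 in normal epithelium, and Nr1i3 at 4.71, 4.79 and 4.34 against 4.36 to 5.99. Ahr was at 6.47, 5.63 and 5.66 against 5.31 to 6.29. Hnf4a, a regulator of intestinal and hepatic genes, was at 6.18, 6.60 and 6.74 against 6.03 to 8.30. Nfe2l2 was at 9.19, 8.54 and 8.34, within 8.29 to 9.34 on the normal arrays without FP-high replicate 1. Nr1h4, the bile acid receptor FXR, lay above all normal arrays, at 7.07, 6.84 and 6.95 against at most 6.77. Its difference of 0.87 ± 0.42 did not pass (limma adjusted p = 0.495, or 0.57 and 0.127 without FP-high replicate 1). Ugp2 of cosubstrate supply also lay above (8.12 to 8.40 against at most 8.09), and the reductase Akr1c14 below (3.08 to 3.70 against at least 3.84). Neither passed. Of all probe sets 1.93% lay above all normal arrays and 2.04% below. The efflux transporters Abcb1a (7.51 to 7.85 in adenomas) and Abcg2 (7.53 to 7.88) had differences of 1.40 and 0.84 from normal epithelium, and 0.94 and 0.46 without FP-high replicate 1, and did not pass.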

How the data were processed

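The authors deposited log2 values for 13 Affymetrix Mouse Gene ST arrays, with 35556 rows. Per the submitters' processing notes they used Expression Console and Transcriptome Analysis Console. The summarisation, the normalization and the genome build used were not given in the sources used here. No counts underlie the values, so the number of arrays limits their precision. Of 23410 rows with a gene symbol, 21789 carried exactly 1. Groups came from the sample titles. A linear model over the 3 groups was fitted to all 23410 rows with limma 3.58.1 (R 4.3.3; checked on simulated data), two-sided, with Benjamini-Hochberg adjustment over those rows and a threshold of 0.05. The comparisons were FP-high minus FP-low, adenoma minus the mean of both normal group means, and adenoma minus each normal group. The 3 adenoma comparisons share arrays. The members, gene lists and tests were chosen with earlier results of these data known. Named members (38) were those called or not overlapping between adenomas and normal epithelium, the largest differences in either direction, and 32 measured of 34 textbook genes; Gsta1 and Ugt1a1 were not measured on their own. A mean log2 level of at least 5 in a group was reached by 30 of 89 members and was used as a filter only as an alternative. Same-numbered FP-high and adenoma arrays deviated weakly from their group means together (correlations 0.233, 0.102 and 0.22). The correlations of the other groups had no common sign, and no label gives a pairing. Xist was at most 3.61 on FP-high replicates 1 to 3 and at least 8.88 on the adenoma arrays, and Eif2s3y ran the other way. By these transcripts the same-numbered arrays came from mice of opposite sex, so the numbers do not mark a shared mouse. The block by replicate number is only an alternative setting. With the replicate number as a block 51 in place of 179 probe sets passed in adenoma minus FP-high, and no member. Promoters came from RefSeq (GRCm38.p6).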

Additional observations from a re-analysis of the deposited data

Results flagged for a closer look

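In 7 of 76 groups of 4 or 6 arrays tested over the named members, 1 array lay far from the rest of its group; chance gives about 1 in 20. In the FP-high group 5 of these were replicate 1: Cyp1b1 was highest there at 4.34, and Gstp1 (7.61), Gstt2 (4.10), Sult1b1 (6.12) and Sult1d1 (6.78) were lowest. That array reads bright probe sets lower and dim ones higher throughout. In the FP-low group Gsta4 was lowest in replicate 6 at 6.24, with the next array at 7.91, and Gstm5 was highest in replicate 3 at 7.68, with the next at 6.72.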

How the results depend on the processing

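Every one of the 4 comparisons was refitted under 9 other settings and without each array in turn, except that the fit on only the groups compared could not differ for adenoma minus normal. Members called lower against normal epithelium, 0 in the main analysis, numbered 1 (Ugt2a3) under quantile normalization (0.196% of all probe sets), under the filter on dim probe sets (0.057% of those kept) and with trend and robust moderation (0.0299%), and 5 with array weights (Cyp2c55, Cyp3a11, Gstm3, Gstt1 and Ugt2a3; 1.97%), which also called 1 higher (Cyp1b1; 2.96%). Against FP-low, array weights called 1 higher (2.18% of all probe sets) and 3 lower (1.52%), and a fit on only those groups 1 lower (0.513%). Against FP-high, quantile normalization called 1 lower (0.107%), the dim filter 1 lower (0.0285%) and array weights 4 lower (0.675%). Leaving out 1 array gave 0 to 1 lower calls against normal. The 1 came without FP-high replicate 1 (0.615% of all probe sets) or without FP-low replicate 6 (0.0299%). Against FP-low there were 0 to 1 (1 without FP-high replicate 1, 0.513%). Against FP-high there were 0 to 2, with 2 without FP-high replicate 1 (0.192%) and 1, Cyp2b9, without FP-high replicate 4 (0.047%). The causes were not tested.

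The median difference over the members kept its sign under each setting. The medians under the dim filter are over the 30 members with a group mean of at least 5, some of which pass only through a group where they are high, so they are partly set by the filter. Adenoma minus normal was -0.18 under quantile normalization and with the Xist covariate, -0.31 under the dim filter, and -0.28 to -0.23 with an array left out. Adenoma minus FP-high was -0.27 under quantile normalization, -0.26 with array weights and -0.40 to -0.25 with an array left out. Adenoma minus FP-low was -0.32 under the dim filter, -0.07 with the Xist covariate and -0.17 to -0.11 with an array left out. FP-high minus FP-low was 0.13 under the dim filter and 0.19 to 0.26 with an array left out. With the replicate number as a block no member passed in any comparison, the median of adenoma minus FP-high was -0.36, and the block changed no member's call; over all probe sets it left 67 in place of 213 calls against normal and 37 in place of 129 against FP-low. Of 3254 values of the 38 named members under other settings, 24 became calls and 150 uncalled values changed sign; with no call in the main analysis, none could be lost. Dim members, 59 of 89, carry little information on differences, since a value near the floor of the scale has no room to fall.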

Other observations

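Probe sets shared by several genes of these families were described only as groups. The 4 probe sets shared by Gsta1, Gsta2 and 2 gene models were at 8.46 to 10.71 in adenomas and 7.52 to 11.83 in normal epithelium without FP-high replicate 1, with FP-low replicate 6 lowest. The Ugt1a probe set, which covers 8 genes, was at 4.99, 5.39 and 5.37 in adenomas and 5.35 to 6.57 in normal epithelium without FP-high replicate 1. Both Gstp1/Gstp2 probe sets were at 7.40 to 7.65 in adenomas, near FP-low replicate 6 (7.40 and 7.42). The probe set shared by Cyp3a25, Cyp3a57 and Cyp3a59 was at 3.54, 4.48 and 4.54 in adenomas and 2.54 to 8.12 in normal epithelium, with FP-high replicate 3 highest. None of the 15 passed the limma test between adenomas and normal epithelium (adjusted p under 0.05), with or without FP-high replicate 1. At an unadjusted p under 0.05, 2 were lower (13.3%, against 4.59% of all probe sets). Without that array 5 were (33.3%, against 9.63%), and the median difference of the 15 was -0.78.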
